A study of Mus musculus with 24 samples.

Results

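The genes described here are the 265 genes of mouse chromosome 19 that were well covered on both parental alleles of a hybrid embryonic stem cell line, out of 1320 chromosome 19 genes and 48985 genes in the count table. A gene was taken when its mean over 22 libraries was at least 50 counts on the 129S1 allele and at least 50 counts on the CAST allele. The genes were thus chosen by their count levels. The 22 libraries were those other than the pair from i7 recombined clone 12, so the counts of clone 12 had no part in the choice of genes, while the i7 parental and clone 7 counts had. The chromosome itself was picked with its higher CAST counts in clone 12 already known, so the direction of that shift is a description here and no finding. What was examined is how single genes were placed around it: which had a CAST change close to that of the chromosome, which had a larger one and which had a smaller one.

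The study measured polyadenylated RNA in 24 libraries from 12 groups of cells, with 2 biological replicates a group, to ask how gene expression changed after recombination of the genome. All groups derive from F121/9, a female mouse embryonic stem cell line from a cross of 129/Sv with CAST/EiJ, grown in medium with 2 kinase inhibitors and LIF, and every read that could be assigned was counted on the 129S1 or the CAST copy of its gene. The groups used here are the i7 parental cells, labelled as the control, and recombined clones 7 and 12, both labelled as derived from i7. Each recombined line is 1 clone, so its replicates measure the spread between cultures of that clone and not between clones. No agent, age or time point set these 3 groups apart in the labels.

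In a hybrid line each gene is present in 2 copies that differ in sequence, so transcripts can be counted copy by copy. When a cell holds more of one chromosome copy, RNA from that copy usually goes up in proportion, and a gene is called buffered when its RNA goes up less than the copy number. Feedback on a gene's total output acts on both copies, whereas a change in the number of one copy moves the ratio between them, so total counts, counts of each allele and the allelic ratio answer different questions. In bulk RNA, fewer cells with a transcript and less transcript per cell cannot be told apart.

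Promoters of 4 genes are shown because each stands for one kind of response described further on. Mta2 followed the chromosome, Ablim1 had the largest CAST change against the parental cells, Ahnak was high on both alleles, and Slc3a2 was low on the 129S1 allele. Each sequence is the 250 bases before a start site that RefSeq lists on build GRCm38.p6, read from 5′ to 3′ on the strand of the gene, and capitals mark CCGCCC or its reverse complement GGGCGG, the core of a GC box. The Mta2 window is chr19:8941670-8941919 on the plus strand, that of Ablim1 chr19:57314920-57315169 on the minus strand, that of Ahnak chr19:8989034-8989283 on the plus strand and that of Slc3a2 chr19:8713898-8714147 on the minus strand.
Mta2: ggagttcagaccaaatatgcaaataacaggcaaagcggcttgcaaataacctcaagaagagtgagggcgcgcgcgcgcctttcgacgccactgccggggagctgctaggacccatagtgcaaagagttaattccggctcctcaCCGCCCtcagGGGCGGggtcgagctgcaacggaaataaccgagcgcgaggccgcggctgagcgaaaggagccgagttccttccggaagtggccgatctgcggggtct
Ablim1: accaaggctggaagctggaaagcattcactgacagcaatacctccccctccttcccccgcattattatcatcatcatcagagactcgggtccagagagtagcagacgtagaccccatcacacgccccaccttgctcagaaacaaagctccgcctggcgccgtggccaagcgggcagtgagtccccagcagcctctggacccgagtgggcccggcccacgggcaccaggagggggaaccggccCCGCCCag
Ahnak: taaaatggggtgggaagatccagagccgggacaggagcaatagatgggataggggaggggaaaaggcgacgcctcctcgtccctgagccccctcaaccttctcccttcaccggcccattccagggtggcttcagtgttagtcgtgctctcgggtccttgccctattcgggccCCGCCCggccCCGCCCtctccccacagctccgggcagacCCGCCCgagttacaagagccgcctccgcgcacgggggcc
Slc3a2: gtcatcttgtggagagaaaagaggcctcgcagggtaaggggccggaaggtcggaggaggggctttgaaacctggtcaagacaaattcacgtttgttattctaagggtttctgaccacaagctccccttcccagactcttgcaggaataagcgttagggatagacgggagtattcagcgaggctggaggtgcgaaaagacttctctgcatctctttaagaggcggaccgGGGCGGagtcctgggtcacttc
The window held 2 such motifs and 24 CG dinucleotides for Mta2, 1 and 13 for Ablim1, 3 and 18 for Ahnak, and 1 and 11 for Slc3a2. Of the 265 genes, 207 matched the RefSeq table, with 263 promoters. The motif was present on either strand in 61.6% of these, in 61.8% of promoters of the 7020 genes of the other autosomes that met the same limit of counts, and in 32.7% of all 32851 promoters. The well covered genes of chromosome 19 and of other autosomes thus had a like share. A match is a description of the letters and neither a binding site nor a cause.

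Library totals ran from 3287000 to 15580000 counts over all 24 libraries and from 7358000 to 13850000 over the 6 i7 libraries, with 10560000 and 13260000 in clone 12. The 265 genes took 91.4% of all chromosome 19 counts, and their mean count per library had a median of 428.9 and a range of 101.2 to 21010. GENCODE M21 types 247 of them as protein coding and 12 as pseudogenes, and 144 overlap another gene. All 9 embryonic stem cell markers in the table had at least 203.5 CPM, counts per 1000000 of the library's scaled total, in every i7 library, with summed levels of 10010 to 10780 CPM in the parental cells, 10180 to 11230 in clone 7 and 10010 to 10290 in clone 12. The summed level of the 4 mesendoderm markers was 11.6 to 12.6 CPM in the parental cells, 11.0 to 14.4 in clone 7 and 26.4 to 49.5 in clone 12, and that of the 4 neural markers was 65.5 to 72.4, 64.6 to 74.5 and 95.5 to 107.4 CPM. The 4 formative and primed markers summed to 57.3 to 67.6, 51.5 to 58.8 and 73.4 to 96.3 CPM, the 5 primitive endoderm markers to 3.11 to 3.50, 3.19 to 4.75 and 4.31 to 5.22 CPM, and the 4 feeder fibroblast markers to 16.3 to 17.4, 14.7 to 16.5 and 25.5 to 25.7 CPM. Of the fibroblast markers, Col1a2 and Lum were at 0 throughout, so the sum, higher in clone 12, came from Col1a1 and Thy1. Of the 3 genes of the two-cell-like state, Zscan4c and Zscan4d were at 0 in the i7 libraries. Of these lists edgeR could test all 9 stem cell and 4 mesendoderm markers, 3 neural, 3 formative and primed, 3 primitive endoderm, 2 fibroblast and 0 two-cell-like genes, the others having too few counts, and none of those tested passed between clone 12 and either other line. Their part in the results below was not tested.

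The CAST allele of the chromosome was higher in clone 12 and the 129S1 allele was not. The CAST share of the counts of the 265 genes was 62.1% in replicate 1 of clone 12 (95% Wilson interval 61.9% to 62.2%) and 59.9% in replicate 2 (59.8% to 60.1%). In the 22 other libraries it lay between 46.9% and 51.6%, below both. With 34 genes left out that are pseudogenes or have near-identical sequence on other chromosomes, the share was 63.7% and 63.6% in clone 12 and 48.6% to 49.6% elsewhere, so the clone 12 libraries drew together.

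Gene by gene, the median log2 change of clone 12 against the i7 parental cells was 0.92 for CAST counts, a fold of 1.89, and 0.02 for 129S1 counts. It was 0.54 for the sum of both alleles, a fold of 1.45, and 0.93 for the CAST-to-129S1 ratio. Against clone 7 the medians were 0.95, 0.08, 0.56 and 0.91. Over all genes tested the same medians were 0.02, 0.00, 0.01 and 0.01 against the parental cells and 0.01, 0.00, 0.01 and 0.01 against clone 7. Both contrasts use the same clone 12 libraries, so they are given side by side and are not independent of each other. Between clone 7 and the parental cells, the medians of the 265 genes were -0.02 for CAST, -0.01 for 129S1, -0.02 for the sum and 0.01 for the ratio, near 0 in each.

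**Figure D1:**
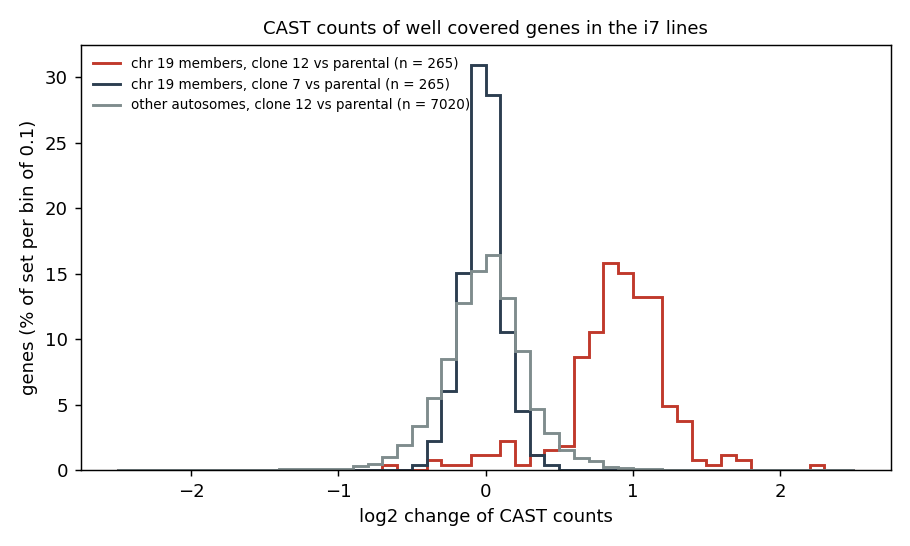
Distribution of the log2 change in CAST counts (x axis, bins of 0.1) as a percentage of each set of genes (y axis). The 265 chromosome 19 genes in clone 12 against the i7 parental cells centre on a median of 0.92, whereas the same genes in clone 7 against the parental cells and 7020 genes of other autosomes in clone 12 against the parental cells centre on 0.

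A change was called at an adjusted p under 0.05 in edgeR's quasi-likelihood test, adjusted over all genes tested. In CAST counts, 53 of the 265 genes were called higher in clone 12 than in the parental cells, where 0.451% of all genes tested were, and 68 were called higher than in clone 7 (0.609% of all genes). In the ratio, 208 and 203 genes were called higher (2.21% of all genes in each contrast). In the sum of both alleles, 1 gene was called higher against the parental cells (0.0185% of all genes) and 3 against clone 7 (0.0431%). None of the 265 was called lower in any of these, where the share of all genes called lower was 0.043% and 0.129% in CAST counts, 0.12% and 0.167% in the ratio, and 0.00616% and 0.0493% in the sum. In 129S1 counts edgeR called 0 genes in either contrast (0.0% of all genes higher in each, and 0.0% and 0.0217% lower). Without adjustment, a p under 0.05 was reached against the parental cells by 14 genes that were higher (5.28%, against 2.31% of all genes tested) and 8 that were lower (3.02% against 2.61%), and against clone 7 by 19 (7.17% against 2.87%) and 7 (2.64% against 3.71%). The absence of 129S1 calls depended on the fit. DESeq2 called 1 gene in each contrast. With a term for the replicate number, which no label ties to a shared batch, edgeR called 20 and 30. Fits of the i7 libraries alone or without a filter on low counts also gave 129S1 calls, listed in the last section. For all these other fits the share of all genes called is not given here. Their counts can therefore not be read as particular to chromosome 19. Between clone 7 and the parental cells edgeR called 0 of the 265 in any of the 4 measures (0.0% of all genes called higher, and 0.0% lower but for 0.00926% in the ratio). At an unadjusted p under 0.05 there were 0 of the 265 in the sum and in the counts of each allele, where 0.123% to 0.253% of all genes were, and in the ratio 5 were higher (1.89%, against 1.03% of all genes) and 1 lower (0.377% against 0.908%).

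The number of CAST calls fell whichever i7 library was left out, each of which left 1 library in its group. The median CAST change stayed at 0.89 to 0.95 against the parental cells and at 0.92 to 0.98 against clone 7. Without parental replicate 1 or 2, without clone 12 replicate 1 or 2, or without clone 7 replicate 1 or 2, which add to the shared estimate of the spread, the calls against the parental cells fell from 53 to 1, 2, 4, 2, 31 and 19. Against clone 7 they fell from 68 to 4 and 4 without its own replicates, to 9 and 7 without those of clone 12, and to 53 and 51 without the parental ones. Fitted with the 6 i7 libraries alone, CAST calls came to 184 and 200 and calls in the sum to 62 and 118. By DESeq2 they came to 117 and 130, and 23 and 38. The share of all genes called by these 2 ways is not given here. Ratio calls came to 131 or more of 265 in each test that left out a library, and 113 of the 208 and 115 of the 203 were made in all 6. Where the ratio of a single gene is said below to have risen, the call was made in all 6 tests in both contrasts unless a loss is stated.

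Where the counts of clone 12 were compared with the 4 other i7 libraries without a model, both clone 12 libraries lay above all 4 in CAST counts for 246 of the 265 genes (17.6% of all genes tested) and below all 4 for 1 (16.3%). In the sum of both alleles they lay above for 222 (18.6%) and below for 6 (17.4%). In 129S1 counts 63 genes lay above (23.8%, against 15.9% of all genes tested) and 44 below (16.6% against 16.9%). The CAST shift was thus present in most of the genes. On the 129S1 allele the share below was near that of all genes, and the share above was somewhat larger.

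Most genes followed the chromosome within a set width. A gene was placed in a band when its CAST log2 change was between 0.5 and 1.5 times the median, that is 0.46 to 1.38 against the parental cells and 0.47 to 1.42 against clone 7. The band held 234 of the 265 genes (88.3%) in the first contrast and 229 (86.4%) in the second, with 21 and 23 below it and 10 and 13 above it. In percent, 7.92% and 8.68% were below and 3.77% and 4.91% above. Of the 231 genes that are neither pseudogenes nor have near-identical copies, 11 and 12 were below and 10 and 13 above, about as many on either side. Among the 7020 genes of other autosomes, 5.66% and 6.62% lay as far below their own median and 5.04% and 5.67% as far above, so scatter of that width was not limited to chromosome 19. In clone 7 against the parental cells, 1 of the 265 lay as far below and 1 as far above. A band of 0.5 times that width left 48 and 58 genes below and 52 and 51 above.

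Genes closest to the medians in CAST, 129S1 and ratio together, within 0.1 in both contrasts, numbered 8: Cdca5, Otub1, AC129217.1, Mta2, Klf9, Arhgap19, Pprc1 and Zdhhc6. Apart from Mta2 they are named after their values were seen. Of the 8, 1 has a near-identical copy off the chromosome. AC129217.1 overlaps Hnrnpul2, Bscl2 and Gng3, so its values are uncertain. Mta2 encodes a subunit of the NuRD chromatin remodelling and deacetylase complex and lies at chr19:8941875-8952303 on the plus strand (GRCm38), and its promoter is the first one printed above. Its CAST level was 98.2 and 103.4 CPM in the parental cells, 89.8 and 90.1 in clone 7, and 198.2 and 172.4 in clone 12. Its 129S1 level was 66.3 and 66.6 CPM in the parental cells, 62.9 and 51.0 in clone 7, and 67.5 and 59.8 in clone 12. Both clone 12 libraries were high on CAST with no overlap, and on 129S1 the 3 lines overlapped. The Mta2 ratio rose by a log2 of 0.94 (SE 0.10, adjusted p = 1.00e-05) against the parental cells and by 0.87 (adjusted p = 2.19e-05) against clone 7. Klf9, a Krüppel-like transcription factor, had CAST levels of 46.0 and 36.8 CPM in the parental cells, 44.7 and 36.1 in clone 7 and 89.7 and 71.7 in clone 12. Its 129S1 levels were 47.6 and 43.9, 51.3 and 43.0, and 53.6 and 44.2 CPM, overlapping throughout, and its ratio rose by 0.87 (adjusted p = 5.15e-05) and 0.95 (adjusted p = 2.35e-05).

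**Figure D2:**
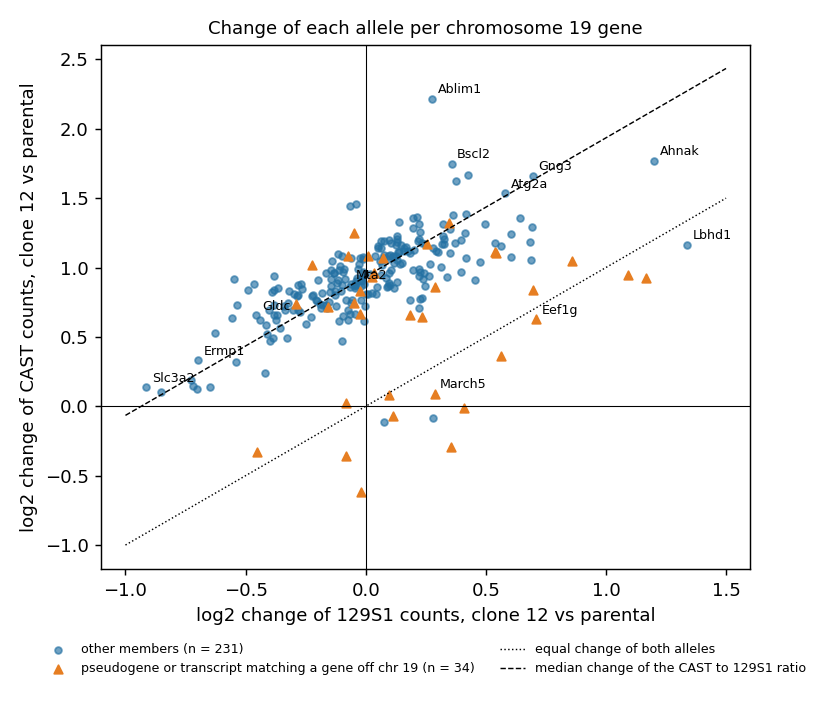
Log2 change in 129S1 counts (x axis) against log2 change in CAST counts (y axis) for each of the 265 genes, clone 12 against the i7 parental cells. Circles are 231 genes, triangles 34 pseudogenes or genes with a near-identical copy off the chromosome; most circles lie along the dashed line of the median ratio change of 0.93, and triangles reach down to the dotted line of equal change.

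Around this shift, the changes of the alleles of a gene were related. Across the 231 genes that are neither pseudogenes nor have near-identical copies, CAST and 129S1 log2 changes had a Pearson r of 0.70 (Spearman 0.75) against the parental cells and 0.75 (0.78) against clone 7. Across 7020 genes of other autosomes r was 0.77 and 0.80. These are descriptions across genes, which are no replicates and share library and depth, and in clone 7 against the parental cells r was 0.21 and 0.36. The spread of single genes was also alike: the interquartile range of the log2 change against the parental cells was 0.35 for CAST, 0.36 for 129S1 and 0.23 for the ratio in the 231 genes, and 0.34, 0.34 and 0.22 on the other autosomes.

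Testing each gene against the median change of its chromosome, instead of against no change, gave few calls in the fit of all 24 libraries by group. In the sum and in CAST counts edgeR called 0 of the 265 in either contrast. Over all genes tested the share called above was 0.0123% and 0.0185% for the sum and 0.0215% and 0.0501% for CAST, and the share called below was 0.00616% and 0.0185%, and 0.0143% and 0.0286%. At an unadjusted p under 0.05, the sum gave 6 genes above (2.26%, against 2.45% of all genes tested) and 11 below (4.15% against 2.64%) against the parental cells, and 7 (2.64% against 2.94%) and 14 (5.28% against 4.08%) against clone 7. CAST gave 6 above (2.26% against 2.34%) and 12 below (4.53% against 2.61%), and 10 (3.77% against 2.74%) and 12 (4.53% against 3.49%). This test was run with edgeR alone. With the 6 i7 libraries alone in the fit, 3 and 14 genes were called in the sum and 3 and 7 in CAST, while ratio calls went to 0 and 0. With a term for the replicate number, which no label ties to a shared batch, calls were 15 and 28 in the sum, 20 and 22 in CAST and 15 and 15 in the ratio. The number of genes called thus depended on the fit. The share of all genes called in these other fits is not given here, so their counts have no background beside them. Without that term and with all 24 libraries, the ratio gave 3 genes below the chromosome median against the parental cells (0.0556% of all genes called below), namely AC124502.2, AC133523.1 and Ppp1r14b, and 4 against clone 7 (0.0834%), namely AC124502.2, AC133523.1, Gm6445 and Tmem258. None was called above it (0.0278% and 0.0463% of all genes). All 5 are described below with the genes that share sequence.

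A larger CAST change was seen in a few genes. Above the band in both contrasts were 8 genes: Ablim1, Gng3, Ahnak, Atg2a, Neurl1a, Bscl2, Map4k2 and 2700081O15Rik. All 8 had both clone 12 libraries above the 4 others in CAST counts (17.6% of all genes tested) and in the sum (18.6%). In 129S1 counts 5 of them did so (15.9%). The ratio was called higher in both contrasts for 6 (2.21% of all genes in each). Of these ratio calls, those of Bscl2 were lost without parental replicate 1 (adjusted p = 0.0843) and, against clone 7, without either clone 7 or either clone 12 replicate (up to 0.221), and that of Neurl1a against clone 7 without the same 4 libraries (up to 0.169). Those of 2700081O15Rik were lost without either parental replicate or clone 12 replicate 1 (up to 0.375) and, against clone 7, without clone 7 replicate 2 or clone 12 replicate 1 (up to 0.135). The median 129S1 change of the 8 genes was 0.42 against the parental cells and 0.69 against clone 7, against 0.02 and 0.08 for all 265. Their median ratio change was 1.10 and 1.08. As the band chose these genes by CAST, and CAST and 129S1 changes are related across genes, these values describe the genes chosen and are no result.

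Ablim1 encodes an actin-binding LIM protein, lies at chr19:57032733-57314919 on the minus strand and overlaps 4930449E18Rik on the other strand. Its CAST level was 29.2 and 32.5 CPM in the parental cells, 32.7 and 38.3 in clone 7, and 156 and 130.8 in clone 12. Its 129S1 level was 9.98 and 9.70 CPM in the parental cells, 5.90 and 13.7 in clone 7, and 10.2 and 13.6 in clone 12. The CAST allele stood far above the other libraries in clone 12, and the 129S1 allele overlapped. CAST counts rose by a log2 of 2.22 (SE 0.25, adjusted p = 0.000366), a fold of 4.65, against the parental cells and by 2.01 (adjusted p = 0.000673), a fold of 4.03, against clone 7. Both calls were made with each library left out in turn, the adjusted p reaching 0.0436 and 0.0413. The sum rose by 1.93 (SE 0.27, adjusted p = 0.00761) and 1.77 (adjusted p = 0.00947). The first of these was lost without either parental or either clone 12 replicate (adjusted p up to 0.437), the second without either clone 7 or either clone 12 replicate (up to 0.364). The Ablim1 ratio rose by 1.92 (adjusted p = 0.00109) and 1.73, the second call lost without clone 7 replicate 2 or clone 12 replicate 1 (adjusted p up to 0.386). The difference of its CAST change from the chromosome median had an adjusted p of 0.0764 against the parental cells and 0.118 against clone 7.

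Ahnak, a giant scaffold protein gene at chr19:8989284-9076914 on the plus strand, differed in form. Its CAST level was 49.0 and 54.1 CPM in the parental cells, 53.2 and 54.1 in clone 7, and 159.9 and 192.1 in clone 12. Its 129S1 level was 37.7 and 39.0, 29.98 and 38.3, and 75.4 and 100.9 CPM. Both alleles were high in both clone 12 libraries, with no overlap on either. The log2 change was 1.77 for CAST (SE 0.48, adjusted p = 0.146) and 1.20 for 129S1 (adjusted p = 0.642) against the parental cells, and 1.71 (adjusted p = 0.136) and 1.37 (adjusted p = 0.299) against clone 7, none of them called. The ratio change was 0.58 (adjusted p = 0.0978) and 0.36 (adjusted p = 0.708). In these values Ahnak had a larger total with a smaller ratio change than the median gene, while Ablim1 had a larger ratio change with 129S1 levels that overlapped. With all 24 libraries in the fit by group, neither was called as differing from the chromosome median in the sum, CAST counts or the ratio.

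Gng3, a G protein gamma subunit gene that overlaps Bscl2 and AC129217.1, had CAST levels of 20.9 and 21.97 CPM in the parental cells, 19.4 and 13.8 in clone 7, and 67.4 and 68.2 in clone 12. Its 129S1 levels were 20.4 and 21.4, 20.2 and 14.3, and 35.9 and 31.9 CPM, also high in clone 12 without overlap. Its ratio rose by 0.97 and 1.06. Atg2a, whose product transfers lipid to the growing autophagosome, had CAST levels of 21.7 and 20.8, 19.9 and 16.1, and 64.6 and 58.5 CPM, and 129S1 levels of 19.1 and 21.0, 20.8 and 16.8, and 30.1 and 29.9 CPM. Its ratio rose by 0.96 (adjusted p = 0.000114) and 1.09, so both alleles were higher and their ratio moved by about as much as that of the chromosome. Bscl2, the lipid droplet protein seipin, had CAST levels of 8.04 and 9.43 CPM in the parental cells and 30.6 and 28.3 in clone 12, with a log2 change of 1.75 (adjusted p = 0.000514), a call lost without parental replicate 1 (adjusted p = 0.0605). Gng3 overlaps both genes on the other strand, and Bscl2 also overlaps AC129217.1 on its own strand. Whether the counting used strand, and how it treated overlaps, is not given in the sources used here, so the values of Gng3 and Bscl2 are uncertain.

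Actr1a and Kank1 were, after Ablim1, the other genes called in the sum of both alleles, and they are named after their values were seen. Actr1a encodes the actin-related protein of the dynactin filament. Its summed level was 106.7 and 101.9 CPM in the parental cells, 83.6 and 92.3 in clone 7, and 164.8 and 176.1 in clone 12. The sum rose by 0.95 (SE 0.14, adjusted p = 0.00947) against clone 7, a call lost without either clone 7 or either clone 12 replicate (adjusted p up to 0.364), and the log2 change against the parental cells was 0.71 (adjusted p = 0.124). Kank1, a regulator of the actin cytoskeleton that overlaps AC126944.1 on the other strand, had a summed level of 42.1 and 47.1, 40.6 and 42.8, and 79.7 and 95.6 CPM. Its sum rose by 1.07 (SE 0.20, adjusted p = 0.0423) against clone 7, a call lost in each of the 6 tests that left out a parental, clone 7 or clone 12 replicate (adjusted p up to 0.584), with 0.97 (adjusted p = 0.126) against the parental cells. In both genes clone 12 was above the 4 other libraries.

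A smaller CAST change was seen in more genes. Below the band in both contrasts were 20 genes. Of these, 10 were pseudogenes or had near-identical copies off the chromosome, and 10 were neither: Slc3a2, Fads1, Ermp1, Pank1, Zfp518a, Rbm14, Asrgl1, Pkd2l1, Zfp950 and Gm21060. In the second 10, the median 129S1 change was -0.70 against the parental cells and -0.63 against clone 7, both clone 12 libraries lay below all 4 others in 129S1 counts for 8 of them (16.9% of all genes tested), and the median ratio change was 0.86 and 0.84. The ratio was called higher in both contrasts for 5 of them, Slc3a2, Fads1, Ermp1, Pank1 and Zfp518a, a call that for Pank1 was lost without either parental replicate or clone 12 replicate 2 in the first contrast (adjusted p up to 0.128) and without clone 7 or clone 12 replicate 2 in the second (up to 0.199). In the first 10, the median 129S1 change was 0.11 and 0.09, the median ratio change was -0.21 and -0.05, and 0 were called in the ratio by edgeR in both contrasts. As these genes were chosen by CAST, and CAST and 129S1 changes are related across genes, a low 129S1 level goes with the choice and is a description only. Zfp950, another zinc finger gene, and Gm21060 differed from the other 8: their 129S1 levels in clone 12 overlapped those of the other lines. The ratio change of Zfp950 was -0.18 and 0.38 and that of Gm21060 was -0.39 and -0.53, none of them called. Apart from Slc3a2, Fads1, Zfp950 and Gm21060, the 10 genes of the second kind are named after their values were seen.

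Slc3a2 encodes the heavy chain shared by several amino acid transporters of the cell surface and lies at chr19:8706882-8723369 on the minus strand. Its CAST level was 549.7 and 526.4 CPM in the parental cells, 557.3 and 503.4 in clone 7, and 602.4 and 580.5 in clone 12. Its 129S1 level was 451.8 and 440.6, 443.8 and 403.8, and 240.4 and 233.7 CPM. CAST was slightly above the other libraries in clone 12 and 129S1 far below them, with no overlap on either allele, and the sum was lowest in clone 12, at 842.8 and 814.2 CPM against 907.3 to 1002 in the others. The log2 change against the parental cells was 0.14 for CAST, -0.91 for 129S1 and -0.25 for the sum, none called. The ratio rose by 1.05 (SE 0.12, adjusted p = 1.08e-05), a fold of 2.07, and by 1.00 (adjusted p = 2.07e-05) against clone 7.

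Zfp518a, a zinc finger gene, had CAST levels of 33.6 and 29.4 CPM in the parental cells, 36.4 and 28.6 in clone 7 and 36.1 and 31.4 in clone 12, overlapping throughout. Its 129S1 levels were 34.4 and 29.0, 36.7 and 29.1, and 18.5 and 16.6 CPM, with clone 12 below all others. The log2 change in 129S1 was -0.85 (adjusted p = 0.895) and the ratio rose by 0.95 (adjusted p = 0.000114) and 0.96. Ermp1, a peptidase of the endoplasmic reticulum, had 129S1 levels of 37.9 and 34.0, 38.1 and 32.1, and 23.4 and 20.9 CPM, again low in clone 12, and CAST levels of 31.1 and 25.1, 28.7 and 30.6, and 37.3 and 33.3 CPM. Its ratio rose by 1.04 and 0.90. Fads1, a fatty acid desaturase, had CAST levels of 170.5 and 147.3, 161 and 136.3, and 186.5 and 188 CPM and 129S1 levels of 126.9 and 106.9, 128.2 and 96.0, and 92.2 and 82.8 CPM. Its ratio rose by 0.66 (adjusted p = 0.00275) and 0.68 (adjusted p = 0.00166), calls lost without clone 12 replicate 2 (adjusted p = 0.0784 and 0.0548).

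Gldc, the glycine-cleaving enzyme of the glycine cleavage system, lay inside the band with the same form. It is named after its values were seen. Its CAST level was 97.1 and 108.3 CPM in the parental cells, 99.3 and 100.3 in clone 7, and 160.4 and 163.9 in clone 12, while its 129S1 level was 195.5 and 206.8, 192.6 and 203.1, and 140.6 and 153.0 CPM. CAST was high and 129S1 low in clone 12, with no overlap on either, and the ratio rose by 1.12 (adjusted p = 4.00e-05) and 1.13. In all, 15 of the 265 genes had a 129S1 change below -0.4 in both contrasts, 14 of them neither pseudogenes nor copied. Their median ratio change was 1.01 and 0.98 and the median change of their sum was -0.16 and -0.11.

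**Figure D3:**
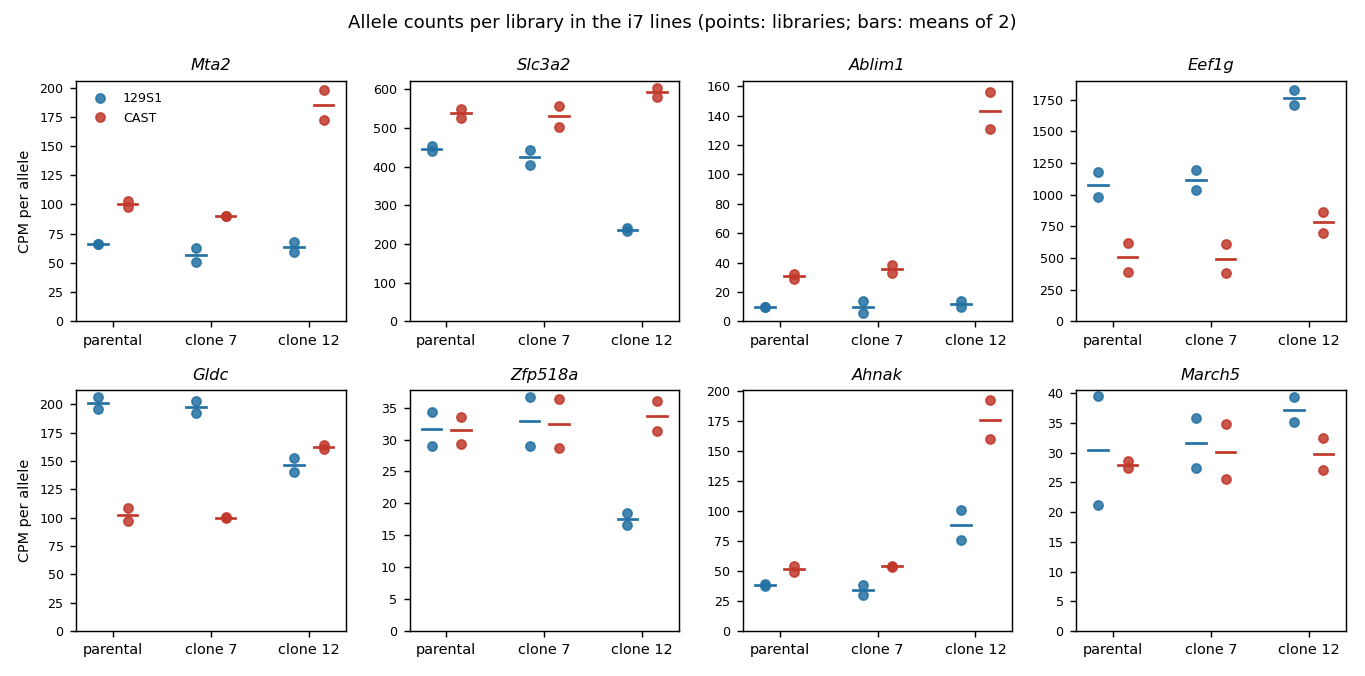
Level in CPM (y axis) of the 129S1 and CAST alleles of 8 genes in each of the 6 i7 libraries (points), with bars at the mean of the 2 libraries of a group. Mta2 and Gldc show CAST high in clone 12, Slc3a2 and Zfp518a show 129S1 low with CAST at most slightly higher, Ablim1 and Ahnak show the largest CAST levels relative to the other lines, and Eef1g and March5 have part of their transcript matched on other chromosomes.

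Some of the genes share sequence with other chromosomes. Of the 265, 32 have at least 10% of their longest transcript matched at 95% identity or more, over 75 bases or more, off chromosome 19, and 34 are copied in this way or typed as pseudogenes. The 12 pseudogenes had a median ratio change of -0.05 against the parental cells and -0.01 against clone 7, and edgeR called 0 of them in either contrast. By the share of transcript matched, the median ratio change was 0.95 and 0.93 in 233 genes under 10%, 0.86 and 0.63 in 19 genes from 10% to 50%, and 0.10 and 0.13 in 13 genes at 50% or more. Calls against the parental cells numbered 195, 11 and 2 in these classes. Across the 265 genes the matched share and the ratio change had a Pearson r of -0.51 (Spearman -0.29). Of the 18 genes with a ratio change under 0.4 in both contrasts, 15 were pseudogenes or copied. Reads from a copy elsewhere could be counted for such a gene, so their values are uncertain, and how the deposited counting treated such reads is not given in the sources used here.

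Eef1g, a subunit of a translation elongation factor, is an example, with 72.0% of its transcript matched elsewhere. Its CAST level was 616.5 and 393.5 CPM in the parental cells, 613.8 and 378.6 in clone 7, and 862.7 and 699.6 in clone 12. Its 129S1 level was 981 and 1179, 1040 and 1191, and 1708 and 1824 CPM. Both alleles were above the other libraries in clone 12, and the ratio change was -0.06 and 0.02. March5, a mitochondrial ubiquitin ligase gene named after its values were seen, with 46.0% matched, had CAST levels of 28.7 and 27.4, 34.8 and 25.6, and 32.5 and 27.2 CPM, which overlapped, and a ratio change of -0.22 in both contrasts. Pgam1, an enzyme of glycolysis with 43.1% matched and 7.57% of its counts on 129S1, had a ratio change of 0.09 and 0.08.

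The genes called below the chromosome median in the ratio belong here, or overlap another gene. AC133523.1, at chr19:3821764-3822389 on the minus strand and matched over its whole length elsewhere, had CAST levels of 32.9 and 30.5, 37.7 and 27.0, and 35.8 and 24.6 CPM, and 129S1 levels of 54.6 and 52.0, 64.6 and 54.8, and 62.4 and 53.0 CPM. Its 3 lines overlapped on both alleles, and its ratio change was -0.21 and -0.05. The difference from the chromosome had an adjusted p of 0.000889, up to 0.0704 without clone 12 replicate 2, and 0.0058, up to 0.226 without clone 7 replicate 1 or clone 12 replicate 2. AC124502.2, at chr19:5009385-5009799 on the plus strand, had no match by the rule but 89.7% of its counts on 129S1. Its CAST levels were 35.0 and 21.6, 40.0 and 22.8, and 21.0 and 15.8 CPM, so clone 12 was the lowest, and its ratio change was -0.58 and -0.53. Its calls (adjusted p = 0.0346 and 0.0277) were lost without parental replicate 1 or either clone 12 replicate in the first contrast (up to 1.0), and without clone 7 replicate 1 or either clone 12 replicate in the second (up to 0.569).

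Ppp1r14b, an inhibitor of protein phosphatase with 45.5% of its transcript matched elsewhere, had a ratio change of -0.16 and -0.03, and its call against the parental cells (adjusted p = 0.0499) was lost in each of the 6 tests that left out a parental, clone 7 or clone 12 replicate (0.0518 to 0.676). Gm6445, a pseudogene, had a ratio change of 0.14 and 0.02, and its call against clone 7 (adjusted p = 0.0277) was lost without clone 7 replicate 2 or either clone 12 replicate (up to 0.696). Tmem258, a subunit of the oligosaccharyltransferase that overlaps Fen1, had a ratio change of 0.57 and 0.24. Its 129S1 level was 41.2 and 40.4 CPM in the parental cells, 35.3 and 32.4 in clone 7 and 61.4 and 57.1 in clone 12, so both alleles were high in clone 12. The call against clone 7 (adjusted p = 0.029) was lost without either clone 7 or either clone 12 replicate (up to 0.348). Ppp1r14b and Tmem258 are named after their values were seen.

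By function, 10 lists of chromosome 19 genes were counted, with 168 genes listed. The ratio calls of each list stand beside those of all 265 genes, of which 78.5% were called higher against the parental cells and 76.6% against clone 7. Of all genes tested, 2.21% were called higher in each contrast. A list with a share of calls near that of the 265 shows nothing particular to it. Genes of DNA replication, repair and segregation gave 18 of 20 listed genes, with a median log2 change against the parental cells of 1.06 in CAST, 0.04 in 129S1 and 0.90 in the ratio. In the ratio 17 were called higher against the parental cells and 16 against clone 7, and none lower. Cep55, needed for the final cut between daughter cells, had CAST levels of 76.4 and 86.6, 74.8 and 87.9, and 160.0 and 199.0 CPM, and 129S1 levels of 114.7 and 124.9, 111.5 and 131.5, and 106.0 and 142.2 CPM. CAST stood apart in clone 12 and 129S1 overlapped, and the ratio rose by 1.10 (adjusted p = 2.42e-06). Kif11, a kinesin of the mitotic spindle, had CAST levels of 113.7 and 107.4, 111.5 and 103.0, and 206.5 and 194.6 CPM, and its ratio rose by 0.81. For Ddb1, which binds damaged DNA as part of a ubiquitin ligase, CAST levels were 216.0 and 220.3, 212.9 and 205.2, and 486.6 and 462.9 CPM, and the ratio rose by 0.83.

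**Figure D4:**
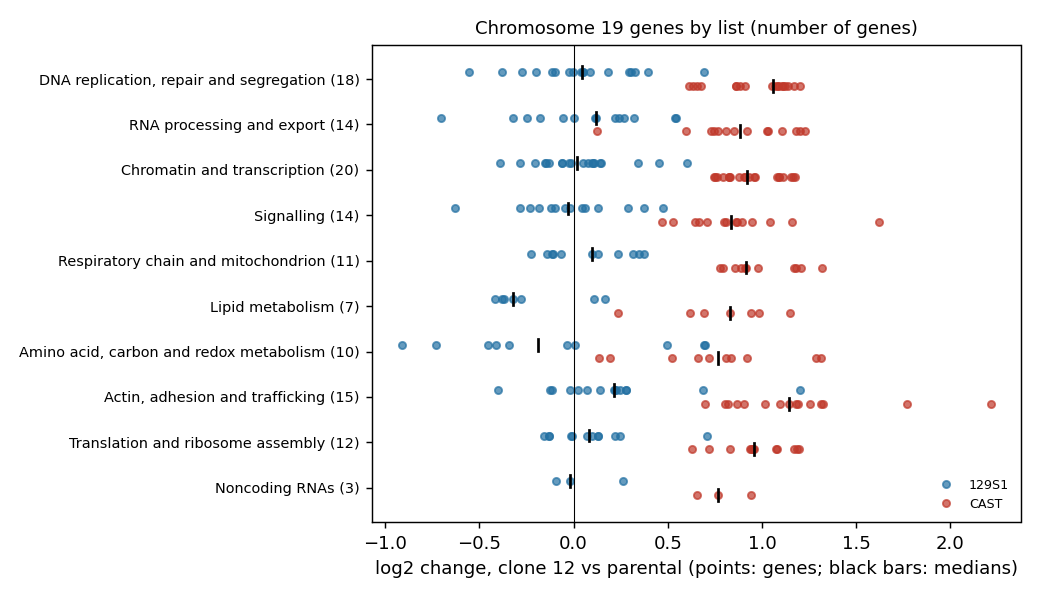
Log2 change of clone 12 against the i7 parental cells in 129S1 and CAST counts (x axis) for each gene of the 10 lists (y axis), with points for genes and black bars for the median of a list. CAST medians lie between 0.77 and 1.14 in every list, and 129S1 medians between -0.32 and 0.22.

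RNA processing and export gave 14 of 15 listed genes, with 10 called in the ratio in each contrast and medians of 0.89 in CAST, 0.12 in 129S1 and 0.83 in the ratio. Sf1, which binds the branch point of introns, had a log2 change of 0.60 in CAST and -0.25 in 129S1, and its ratio rose by 0.84. For Prpf19, a core splicing factor, the changes were 1.23 and 0.32, and the ratio rose by 0.91. Chromatin and transcription gave 20 of 29, with 16 called in each contrast and medians of 0.92, 0.02 and 0.97. Pcgf6, a Polycomb subunit, had changes of 0.75 in CAST and -0.15 in 129S1. Signalling gave 14 of 21, with 13 and 11 called and medians of 0.83, -0.03 and 0.88. Tnks2, a tankyrase that adds ADP-ribose to Axin and other proteins, had changes of 0.95 and 0.06, and its ratio rose by 0.89.

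Genes of the respiratory chain and mitochondrion gave 11 of 18 listed, with 9 and 10 called in the ratio and medians of 0.92, 0.10 and 0.99. Ndufv1, a subunit of complex I, had CAST levels of 49.7 and 54.0, 47.6 and 49.6, and 86.8 and 108.4 CPM, apart in clone 12. For Ndufb8, another subunit, the ratio rose by 1.06. In lipid metabolism 7 of 15 listed were covered, all 7 were called in the ratio in both contrasts, and the 129S1 median was -0.32, the lowest of the 10 lists, with 0.83 in CAST and 0.98 in the ratio. Scd2, a stearoyl-CoA desaturase, had CAST levels of 652.0 and 637.7, 589.8 and 568.7, and 1279 and 1269 CPM, and its ratio rose by 0.88. For its relative Scd1 the CAST change was 0.69 and the 129S1 change -0.28, and the ratio rose by 0.97. Amino acid, carbon and redox metabolism gave 10 of 15, with 7 called in each contrast and medians of 0.77, -0.19 and 0.93. Psat1, an aminotransferase of serine synthesis, had CAST levels of 688.2 and 658.6, 699.6 and 613.1, and 1328 and 1226 CPM, high in clone 12, and its ratio rose by 0.96 (adjusted p = 0.000372).

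Genes of actin, adhesion and trafficking gave 15 of 20 listed, with 14 called in the ratio in each contrast and the highest CAST and 129S1 medians of the 10 lists, 1.14 and 0.22, with 0.94 in the ratio. The 3 genes called in the sum against clone 7 (0.0431% of all genes), Ablim1, Actr1a and Kank1, belong to it, and so does Ahnak. As the lists were chosen with earlier results of these data known, this membership and the rank of the medians are descriptions only. For the kinase gene Slk the ratio rose by 0.93. Translation and ribosome assembly gave all 12 listed genes, with 11 called in each contrast and medians of 0.96, 0.08 and 0.96, the gene not called being Eef1g. Nolc1, a nucleolar chaperone of small ribonucleoproteins, had changes of 1.17 and 0.25, and its ratio rose by 0.92. The 3 noncoding RNAs were called in the ratio in both contrasts, with medians of 0.77, -0.02 and 0.77. Malat1, an abundant nuclear RNA, had changes of 0.65 and -0.09, and its ratio rose by 0.77. These lists were not compared with each other by a test.

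Along the chromosome the median ratio change was similar in bins of 10 Mb up to 60 Mb. These 6 bins held 95, 28, 13, 18, 60 and 12 genes among the 231 that are neither pseudogenes nor copied, placed by their start, and the median ratio change ran from 0.93 to 0.99 against the parental cells and from 0.91 to 0.99 against clone 7. The last bin held 5 genes, with medians of 0.63 and 0.44. Between 8.8 and 9.0 Mb, a stretch singled out after its values were seen, 16 of all 265 genes had a median 129S1 change of 0.31 and 0.30, against -0.00 and 0.06 in the other 249, with CAST medians of 1.03 and 1.08. Mta2, Gng3, Bscl2, Ahnak and Eef1g are among the 16. Unlike the bins, the stretch includes copied genes: Gm49416, Ints5 and Eef1g have 58.7%, 92.8% and 72.0% of their transcript matched off the chromosome. Their 129S1 changes lay above the median of the stretch in both contrasts, and a median without them is not given here. Gng3, Bscl2, AC129217.1 and Lbhd1 overlap other genes, so their values are uncertain as well.

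**Figure D5:**
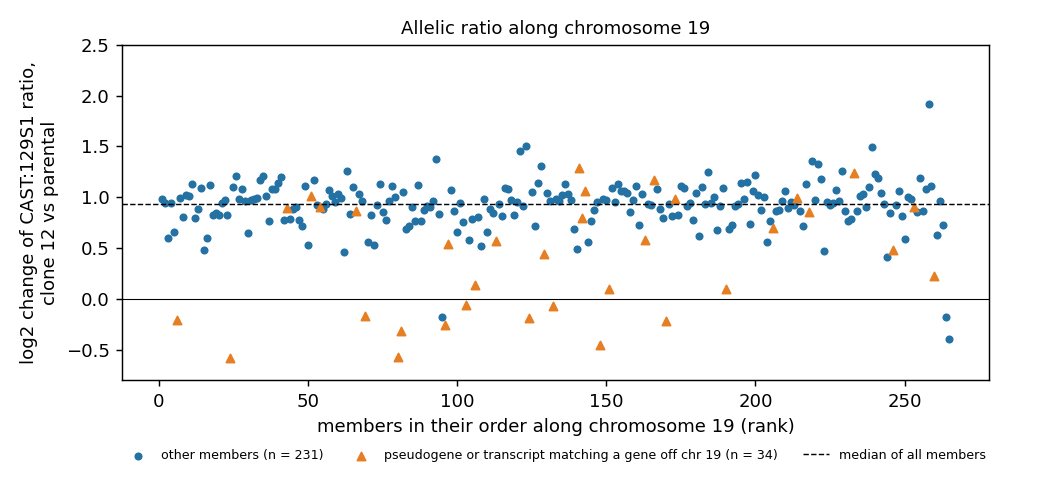
Log2 change of the CAST-to-129S1 ratio, clone 12 against the i7 parental cells (y axis), for the 265 genes by rank of position along chromosome 19 (x axis). Circles are 231 genes and triangles 34 pseudogenes or copied genes. The dashed line is the median of 0.93, around which most circles lie up to 60 Mb. The last 5 circles, beyond 60 Mb, have a median of 0.63 and reach down to -0.39.

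How often the ratio was called also moved with depth. In the 231 genes without copies, ordered by mean counts, 55 of the lowest 77, 69 of the middle 77 and 71 of the highest 77 were called against the parental cells, that is 71.4%, 89.6% and 92.2%. A gene with few counts and no call is therefore not shown to lack the change. Of 45 genes called in the ratio in neither contrast, 20 were pseudogenes or copied and 25 were not. At the limit of 50 counts, genes just inside were Dnajc4 and Eml3, with CAST changes of 0.49 and 1.24 against the parental cells. Just outside lay Taf5, Pla2g16 and 1110059E24Rik, with 1.14, 0.31 and 0.77.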

How the data were processed

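The data are raw counts per gene and allele from stranded, single-end sequencing of polyadenylated RNA in 24 libraries. The deposited counts are whole numbers in 1 129S1 and 1 CAST column a library. Per the submitters' processing notes, STAR and SAMtools were used with genome build mm10; their versions, the program that counted reads, its annotation and what it did with reads that cover no variant are not given in the sources used here. Of the gene IDs, 48840 matched GENCODE M21 (48300 with the same version), and 147 did not (0.0148% of counts). All 24 libraries (12 groups, no covariate) entered each fit, with 12 residual degrees of freedom, TMM scaling and filterByExpr.

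The sum of both alleles, CAST counts and 129S1 counts were tested with edgeR 4.0.16 (R 4.3.3, limma 3.58.1) by the quasi-likelihood test with Benjamini-Hochberg adjustment over all genes tested. The allelic ratio was tested as the contrast between allele columns within a library, in genes with mean counts of at least 10. The same fits tested each gene against the median change of its chromosome. Library scaling of allele counts was taken from the sums, and CPM are per 1000000 of that scaled total. All SE and adjusted p values in the text come from these fits. Library totals were 3287000 to 15580000 counts; Wilson intervals cover counting error only. The replicates are labelled as biological, and each clone is 1 line.

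Alternatives tried were DESeq2 1.42.0 as the test and as size factors, other filters and scalings, other limits of counts and bands, each library left out, the i7 libraries alone, a term for the replicate number, and genes without overlap; leaving out pseudogenes or copied genes was added after seeing the data. Copies were found with blastn 2.17.0 (95% identity over 75 bases or more, 10% of the longest transcript). Tables and figures were made in Python 3.11.15, with matplotlib 3.10.9, pandas 2.3.3, scipy 1.17.1 and numpy 2.4.6. The tests were tested on simulated data first.

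Genes named are those called against the chromosome median in both contrasts, those whose CAST change lay furthest above and below the median with both clone 12 libraries on that side (up to 8 a side), the 6 with the most counts, 3 on either side of the limit and up to 3 of each list with the most counts; others are said to be named after their values were seen. A few genes under this rule are not reported here. Members and lists were chosen with earlier results of these data known.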

Additional observations from a re-analysis of the deposited data

Results flagged for a closer look

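Clone 12 and clone 7 were both recombined from i7, and edgeR's test of the difference between them called genes of chromosome 19. In CAST counts 68 of the 265 genes differed (0.609% of all genes tested were called higher), and in the CAST-to-129S1 ratio 203 did (2.21%), all of them higher in clone 12. This shift was known when the genes were chosen, so the counts are a description. Between clone 7 and the i7 parental cells, edgeR called 0 of the 265 in either measure. Without adjustment, a p under 0.05 was reached by 0 genes in CAST counts (0.236% of all genes higher and 0.201% lower), and in the ratio 5 were higher (1.03% of all genes) and 1 lower (0.908%).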

How the results depend on the processing

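Pairs of values give the contrast with the i7 parental cells first and that with clone 7 next. Outside the tests that left out a library, the median CAST log2 change lay between 0.88 and 0.96 in the alternatives listed next. It was 0.91 against the parental cells with DESeq2 size factors, with the DESeq2 test, with TMM computed without chromosome 19 and with a limit of 100 counts, 0.96 against clone 7 with the i7 libraries alone, 0.89 and 0.93 with a limit of 20 counts, 0.88 and 0.93 in genes that overlap no other gene, and 0.93 and 0.96 without pseudogenes, with 0.96 against clone 7 without copied genes.

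Counts of calls moved far more. They are counts of chromosome 19 genes, and the share of all genes called is not given for the alternatives. With a term for the replicate number (replicate block), calls came to 138 and 157 in the sum, 231 and 228 in CAST counts and 20 and 30 in 129S1 counts, and calls against the chromosome median to 15 and 28 in the sum, 20 and 22 in CAST counts and 15 and 15 in the ratio. The labels do not say that a number marks a shared batch, and only 2 numbers exist; the difference between replicates 1 and 2 had a correlation across 16239 genes of 0.40 between the parental cells and clone 12, 0.55 between the parental cells and clone 7 and 0.51 between the clones. With the block the biological coefficient of variation of the sum was 0.120 against 0.247 without, on 7 residual degrees of freedom against 12. With the i7 libraries alone, calls were 62 and 118 in the sum, 184 and 200 in CAST counts and 4 and 10 in 129S1 counts, and against the chromosome median 3 and 14, 3 and 7, and in the ratio 0 and 0. With no filter on low counts they were 11 and 22, 90 and 120, and 4 and 5, and against the chromosome median 2 and 3 in the sum and 4 and 6 in CAST counts. A stricter filter gave 5 calls in the sum and 1 against the chromosome median, both against clone 7. The DESeq2 test gave 23 and 38, 117 and 130, and 1 and 1.

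In the 121 genes that overlap no other gene, a smaller set by construction, calls were 0 and 1 in the sum, 19 and 24 in CAST counts, 90 and 85 in the ratio and 1 and 1 against the chromosome median in the ratio, with 11 and 11 genes below the band and 4 and 6 above. Leaving out pseudogenes, or copied genes, left 1 and 1 calls against the chromosome median in the ratio and 13 genes below the band against the parental cells. A limit of 20 counts gave 34 genes below the band against the parental cells and 19 and 25 above, and a limit of 100 gave 8 above against clone 7. A band of 0.5 times the width gave 48 and 58 below and 52 and 51 above. Apart from these smaller sets, the cause of each such move was not tested.

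With each library left out in turn, calls ranged from 0 to 1 and from 0 to 2 in the sum, from 1 to 31 and from 4 to 53 in CAST counts, from 131 to 209 and from 133 to 200 in the ratio and from 0 to 3 and from 0 to 4 against the chromosome median in the ratio; 129S1 calls, and calls of the sum or CAST counts against the chromosome median, were 0 throughout, as were calls between clone 7 and the parental cells. Medians ranged from 0.51 to 0.56 and from 0.55 to 0.58 in the sum, from 0.89 to 0.95 and from 0.92 to 0.98 in CAST counts, from -0.01 to 0.04 and from 0.03 to 0.08 in 129S1 counts, and from 0.92 to 0.94 and from 0.91 to 0.92 in the ratio. The band had 21 to 31 and 23 to 31 genes below it and 8 to 27 and 12 to 25 above it. Of the single-gene values under all alternatives, 24277 kept their call and direction, 1578 gained a call, 1175 lost one and 0 reversed. Depth also sets a limit: the genes begin at 101.2 mean counts for both alleles together.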
